A study of Mus musculus with 16 samples.

Results

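Wnt1 and the 3 neighbouring rows Ddn, Prkag1 and B130046B21Rik were followed through 16 RNA-seq libraries of mouse cortical bone. They are 4 of the 47517 rows counted. A row is one gene entry of the authors' count tables, and it is named here by its symbol because its fragments need not come from the gene of that name. The rows lie in one stretch of chromosome 15 and were chosen by their fragment counts in loaded against non-loaded bone, for a strong response in both genotypes, so their loading responses are given as descriptions, with no test. That response was present in the Ddn and Prkag1 rows and not in the B130046B21Rik row, and the Wnt1 row held too few fragments to show one.

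Bone came from 8 male mice aged 16 weeks, 4 labelled NT3-Cre+ (NT3 below) and 4 labelled Ctrl. From each mouse both tibiae were used, the right one loaded and the left one not, so the groups were loaded NT3, non-loaded NT3, loaded Ctrl and non-loaded Ctrl, with 4 libraries each. The right tibia was compressed along its axis for 9 days at 1200 cycles a day, with a peak force of 10.0 N in NT3 and 8.7 N in Ctrl set to give -2000 microstrain in both, and bone was taken 4 hours after the last bout. The series title concerns mice in which NF-kB inducing kinase is switched on in bone-forming cells. No source used here states what the NT3 allele is, which promoter drives the Cre, or which alleles Ctrl mice carried. Force and genotype differed together and cannot be told apart.

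Wnt ligands are secreted proteins that bind Frizzled receptors and the co-receptors LRP5 and LRP6, which stabilises β-catenin and turns on target genes. In bone this pathway drives osteoblast activity, and sclerostin, made by osteocytes from Sost, restrains it. Wnt1 encodes one of these ligands, and in humans mutations of WNT1 cause brittle bone disease and early-onset osteoporosis. Ddn encodes dendrin, a protein described in neurons and in kidney podocytes. Prkag1 encodes a regulatory gamma subunit of AMP-activated protein kinase (AMPK), an energy sensor found in most cells. B130046B21Rik is annotated as an antisense RNA, and no function is assigned to it here.

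The 4 genes lie in a row on chromosome 15 of GRCm38 (GENCODE M21). Wnt1 lies on the plus strand at chr15:98789857-98793837 and has 4 exons. Ddn lies on the minus strand at chr15:98803777-98809490, with its nearer end 9.94 kb beyond the end of Wnt1. B130046B21Rik lies on the plus strand, like Wnt1, at chr15:98807024-98816077. Prkag1 lies on the minus strand at chr15:98812797-98831521, 18.96 kb beyond the end of Wnt1. Both minus-strand genes face exons of B130046B21Rik, but to different extents. Ddn shares 1 stretch of 177 bases with it, all of it coding sequence of Ddn and 4.68% of the exon bases of Ddn. Prkag1 shares 7 stretches with 950 bases in all, of which 732 are coding, or 43.7% of its exon bases. Together these stretches make up 47.8% of the exon bases of B130046B21Rik. These shares use M21 exons, and the deposited row lengths are shorter. Prkag1 has 2175 exon bases against a row length of 1638, Ddn 3781 against 3740 and B130046B21Rik 2359 against 2216. The shares may thus differ for the exons the authors counted. Wnt1 faces no annotated exon.

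**Figure D1:**
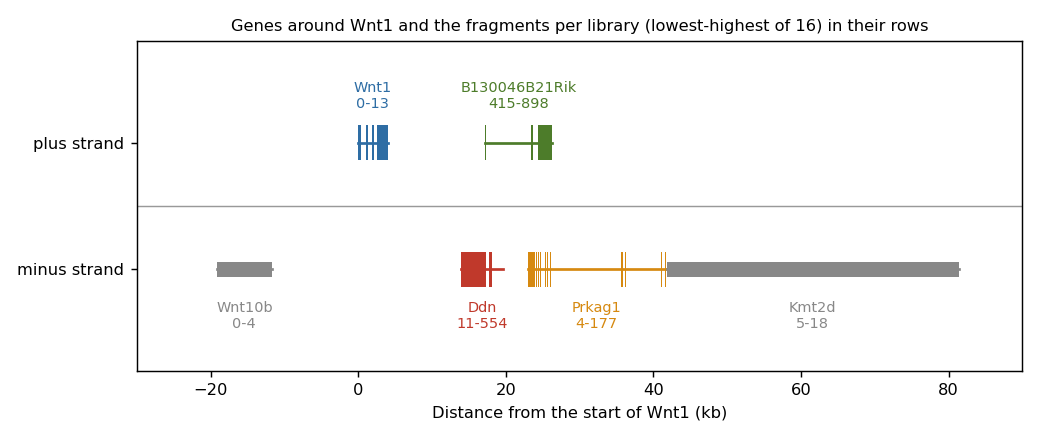
Map of the genes around Wnt1, with distance from the start of Wnt1 in kb on the x axis and the strand on the y axis; boxes are exons of the 4 genes described and grey bars are neighbouring genes longer than 4 kb. The numbers are the lowest and highest fragments per library over 16 libraries, which reached 554 in the Ddn row and 177 in the Prkag1 row but 13 in the Wnt1 row and 18 in the Kmt2d row.

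In the stretches that face each other, a count that uses strand would name a fragment by its strand. The beginning of B130046B21Rik, where it faces Ddn, and the second of the stretches where it faces Prkag1 are shown as they read on the plus strand. Capitals mark the bases that lie opposite an exon of Ddn (177 bases from chr15:98807024-98807224) or of Prkag1 (148 bases from chr15:98814206-98814383), and lower case marks the bases that follow, which face no exon.
B130046B21Rik opposite Ddn: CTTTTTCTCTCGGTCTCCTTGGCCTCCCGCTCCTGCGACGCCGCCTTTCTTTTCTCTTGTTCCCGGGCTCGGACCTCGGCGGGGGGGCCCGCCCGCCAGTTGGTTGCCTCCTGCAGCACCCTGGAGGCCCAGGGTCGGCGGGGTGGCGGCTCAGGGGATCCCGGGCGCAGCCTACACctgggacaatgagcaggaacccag
B130046B21Rik opposite Prkag1: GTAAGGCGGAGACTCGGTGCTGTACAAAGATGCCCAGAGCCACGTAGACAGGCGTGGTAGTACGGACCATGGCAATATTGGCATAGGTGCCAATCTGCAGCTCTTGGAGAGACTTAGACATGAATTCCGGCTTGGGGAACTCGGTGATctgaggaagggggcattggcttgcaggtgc
Without its strand, a read from the capitals fits both genes. Whether and how the authors' counting used strand is not given in the sources used here, so the fragments of these rows cannot be assigned to one strand of RNA.

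Libraries held 758394 to 1064391 counted fragments. The mean RNA integrity number given for the samples was 5.4, a low value, and the depth is shallow, so a row with a few fragments has a wide counting error. Most of the abundant rows lie across from an exon on the opposite strand: 1076 of the 1224 placed rows that averaged at least 100 fragments (87.9%), against 6682 of the 44026 other placed rows (15.2%). The Actb row, usually abundant, held 11 to 33 fragments, and Map3k14, which encodes NF-kB inducing kinase, held 1 to 9, so the genotype labels could not be checked.

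In the fragments as counted, the Ddn row was much higher in loaded than in non-loaded bone in every mouse. It held 119, 211, 125 and 91 fragments in loaded NT3 tibiae of mice 1 to 4, against 20, 32, 11 and 16 in their non-loaded tibiae. In Ctrl mice 1 to 4 it held 251, 554, 351 and 354 fragments in loaded tibiae, against 12, 62, 40 and 42 in non-loaded ones. All 8 loaded libraries lay above all 8 non-loaded libraries. The loaded Ctrl libraries also lay above the loaded NT3 libraries, which after scaling to library size held for 3.67% of 6080 rows tested. These counts are unscaled, and loaded NT3 libraries held 758394 to 911686 fragments in all, against 852831 to 1064391 in loaded Ctrl. The row was chosen for its loading response, so nothing is read from the separation by loading.

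Scaled to library size as TMM counts per 1000000 fragments (CPM; TMM is a scaling that aligns the bulk of the rows), the Ddn row averaged 179 ± 79.3 CPM in loaded NT3 and 22.3 ± 9.74 CPM in non-loaded NT3 (mean ± SD, n = 4). The corresponding levels were 426 ± 104 CPM in loaded Ctrl and 43.1 ± 23.8 CPM in non-loaded Ctrl. The fold between the limbs of one mouse ran from 5.89 to 11.6 in NT3 and from 7.56 to 21.2 in Ctrl. The highest fold belonged to Ctrl mouse 1, whose non-loaded limb had the lowest level of its group at 14.1 CPM. With mouse as a block in edgeR, the log2 fold change was 2.98 (SE 0.20) in NT3 and 3.36 (SE 0.17) in Ctrl. Of 7192 rows tested, 24 were called higher with loading in NT3 (0.334%) and 221 in Ctrl (3.07%) at adjusted p under 0.05.

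The Prkag1 row followed the same order of groups at lower counts. It held 35, 75, 30 and 21 fragments in loaded NT3 tibiae of mice 1 to 4, against 9, 13, 5 and 4 in their non-loaded tibiae. In Ctrl mice it held 64, 177, 81 and 114 fragments in loaded tibiae, against 7, 16, 18 and 12 in non-loaded ones. Again no loaded library fell among the non-loaded ones, and mouse 2 had the highest loaded count in both genotypes.

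On the CPM scale, the Prkag1 row averaged 52.9 ± 34.9 in loaded NT3 and 8.80 ± 4.53 in non-loaded NT3, and 121 ± 41.6 in loaded Ctrl and 14.6 ± 5.36 in non-loaded Ctrl (mean ± SD, n = 4). The fold between limbs ran from 3.85 to 7.14 in NT3 mice and from 5.46 to 10.6 in Ctrl mice. The log2 fold change was 2.53 (SE 0.30) in NT3 and 3.04 (SE 0.25) in Ctrl. Both rows were thus higher in the loaded limb of 8 of 8 mice, which held for 2.57% of all rows tested. Since the rows were chosen for this response, nothing is read from that count.

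**Figure D2:**
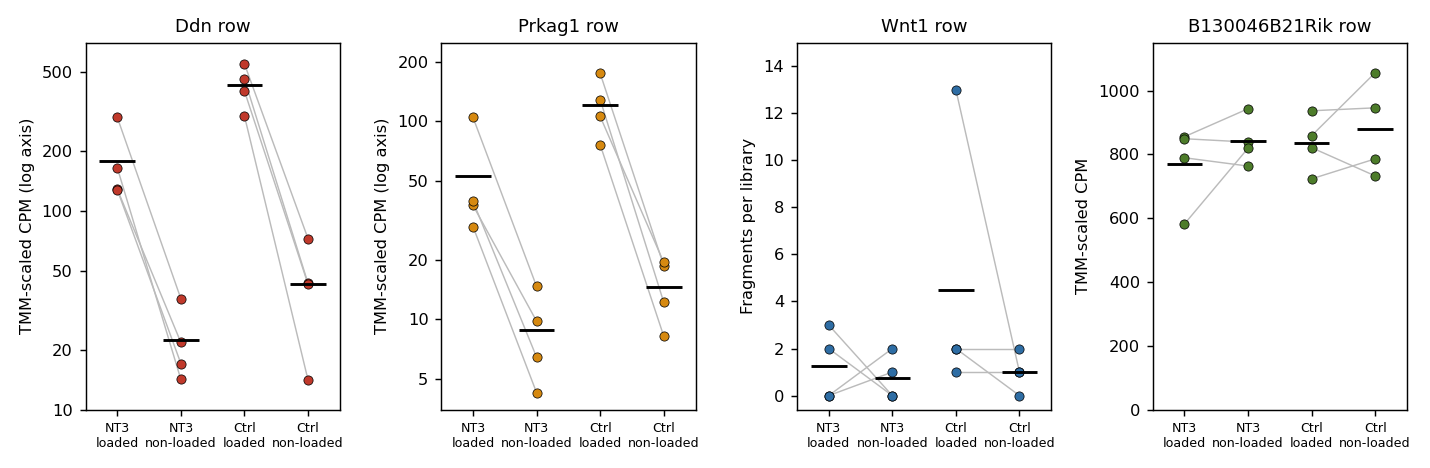
Level of the 4 rows in each library, as TMM-scaled CPM on a log axis for Ddn and Prkag1, as fragments for Wnt1 and as CPM on a linear axis from 0 for B130046B21Rik. Points are libraries, thin lines join the limbs of one mouse and bars are group means (n = 4); loaded limbs lie above non-loaded limbs for Ddn and Prkag1, and groups overlap for B130046B21Rik.

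The B130046B21Rik row, whose annotated exons face both of these rows, showed no such rise. It held 794, 565, 645 and 415 fragments in loaded NT3 tibiae of mice 1 to 4, against 866, 676, 650 and 768 in non-loaded ones. In Ctrl mice it held 720, 732, 716 and 727 fragments in loaded tibiae, against 898, 673, 877 and 720 in non-loaded ones. The groups overlapped throughout, with 1 low library, the loaded limb of NT3 mouse 4.

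The B130046B21Rik row averaged 769 ± 128 CPM in loaded NT3 and 841 ± 75.1 CPM in non-loaded NT3, and 835 ± 88.6 CPM in loaded Ctrl and 880 ± 148 CPM in non-loaded Ctrl. Its log2 fold change with loading was -0.14 in NT3 (95% interval -0.38 to 0.09) and -0.07 in Ctrl (95% interval -0.30 to 0.17). The CPM was higher in the loaded limb in 3 of 8 mice. This row was the 103rd most abundant of all rows, with a mean of 715 fragments, against ranks 915 for Ddn, 2615 for Prkag1 and 12593 for Wnt1.

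Per kb of row length, on the scale of TMM CPM per kb, the B130046B21Rik row stood highest in every group, at 347 in loaded NT3, 380 in non-loaded NT3, 377 in loaded Ctrl and 397 in non-loaded Ctrl. The Ddn row came next, with means of 47.8 in loaded NT3, 5.96 in non-loaded NT3, 114 in loaded Ctrl and 11.5 in non-loaded Ctrl. The Prkag1 row followed with 32.3, 5.37, 74.2 and 8.93 in the same 4 groups. In non-loaded NT3 and non-loaded Ctrl the means of Ddn and Prkag1 differed by less than the SD of either row.

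The Wnt1 row itself was close to empty. It held 3, 2, 0 and 0 fragments in loaded NT3 tibiae of mice 1 to 4, and 0, 0, 2 and 1 in non-loaded ones. In Ctrl mice it held 1, 13, 2 and 2 fragments in loaded tibiae, and 1, 1, 2 and 0 in non-loaded ones. A count of 0 allows up to 3 fragments, which is 3.12 to 3.94 per 1000000 fragments in the libraries at 0. One library, the loaded limb of Ctrl mouse 2, held 13 of the 18 fragments of its group, and that mouse also had the highest Ddn and Prkag1 levels. The other 15 libraries held between 0 and 3.

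The row did not pass the low-count filter, which asks for about 10 fragments in 4 libraries. In an edgeR fit with no filter, the log2 fold change of Wnt1 in NT3 over Ctrl was -1.55 in loaded tibiae (SE 1.00, adjusted p = 0.62) and -0.30 in non-loaded tibiae (SE 1.42, adjusted p = 0.97). A difference in the Wnt1 row between these groups was therefore not detectable at these counts. Whether the counts reflect the level of Wnt1 RNA was not tested.

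The genotypes were compared within each limb. The rows were chosen by loading responses in these same libraries and not by this comparison, so it is only partly free of that choice. In loaded tibiae the Ddn row was 0.417 times as high in NT3 as in Ctrl, and every NT3 library (at most 295 CPM) lay below every Ctrl library (at least 299 CPM), which held for 3.67% of the 6080 rows tested. The log2 fold change was -1.26 (SE 0.31, 95% interval -1.99 to -0.54), lower in NT3, and did not pass edgeR's test over all rows (adjusted p = 0.099). It passed with DESeq2 (adjusted p = 0.011), without the low-count filter (adjusted p = 3.6e-11), without NT3 mouse 2 (adjusted p = 4.3e-07) and without Ctrl mouse 1 (adjusted p = 0.036). These mice gave the highest NT3 and the lowest Ctrl level. Only these 2 of the 8 edgeR fits with a mouse left out passed, and the highest adjusted p was 0.29. It did not pass with RLE size factors in place of TMM (edgeR adjusted p = 0.11). Without the filter the estimate was -1.27, with a smaller SE of 0.16. The smaller adjusted p came with that SE and is not read as stronger evidence from these 8 mice.

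The Prkag1 row had a similar estimate, at 0.429 times the Ctrl level in loaded NT3 tibiae. Its log2 fold change was -1.22 (SE 0.42, 95% interval -2.17 to -0.28; edgeR adjusted p = 0.22), and the groups overlapped, since NT3 mouse 2 at 105 CPM lay above Ctrl mouse 1 at 76.3 CPM. The adjusted p was 4.6e-05 without NT3 mouse 2, 9.2e-06 without the filter and 0.18 with DESeq2. Without the filter the SE was again smaller (0.21), and that p is likewise not read as stronger evidence. The B130046B21Rik row differed little between loaded NT3 and loaded Ctrl (log2 -0.12, 95% interval -0.40 to 0.16, edgeR adjusted p = 0.82). Of the 3 rows tested, 0 were called by edgeR, 2 had an unadjusted p under 0.05 and 1 was called by DESeq2, while 2.65% of all rows were called by edgeR (161 of 6080).

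In non-loaded tibiae the same 2 rows had lower means in NT3, with overlapping groups. For Ddn the log2 fold change was -0.95 (SE 0.39, 95% interval -1.78 to -0.12; edgeR adjusted p = 0.55), with 14.2 to 36.1 CPM in NT3 and 14.1 to 72.4 CPM in Ctrl. For Prkag1 it was -0.73 (SE 0.45, 95% interval -1.66 to 0.19; edgeR adjusted p = 0.77), with 4.27 to 14.7 CPM in NT3 and 8.23 to 19.4 CPM in Ctrl. For B130046B21Rik it was -0.08 (SE 0.15, edgeR adjusted p = 0.95). Here edgeR called 0 of the 3 rows, with 1 at unadjusted p under 0.05 and 0 called by DESeq2, against 0.579% of 6220 rows called by edgeR.

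The last comparison asks whether the loading response differed between genotypes. It subtracts the responses for which the rows were chosen, so it is only partly free of that choice. The response on the log2 scale was smaller in NT3 than in Ctrl by 0.39 for Ddn (difference -0.39, SE 0.28, 95% interval -0.96 to 0.18; edgeR adjusted p = 0.90) and by 0.51 for Prkag1 (difference -0.51, SE 0.43, 95% interval -1.37 to 0.35; edgeR adjusted p = 0.91). Neither passed, and the intervals include no difference as well as a response lower by 1.37 for Prkag1. For B130046B21Rik the difference was -0.07 (SE 0.16, edgeR adjusted p = 0.98). By edgeR 0 of the 3 rows were called, with 0 at unadjusted p under 0.05 and 0 by DESeq2, against 0.139% of 7192 rows, which were 10 rows, all with a lower response in NT3. In CPM rather than log2, the loaded limb exceeded its partner by 156 ± 71.0 for Ddn in NT3 and by 383 ± 81.2 in Ctrl (mean ± SD, n = 4), and for Prkag1 by 44.1 ± 30.9 in NT3 and by 107 ± 38.5 in Ctrl.

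**Figure D3:**
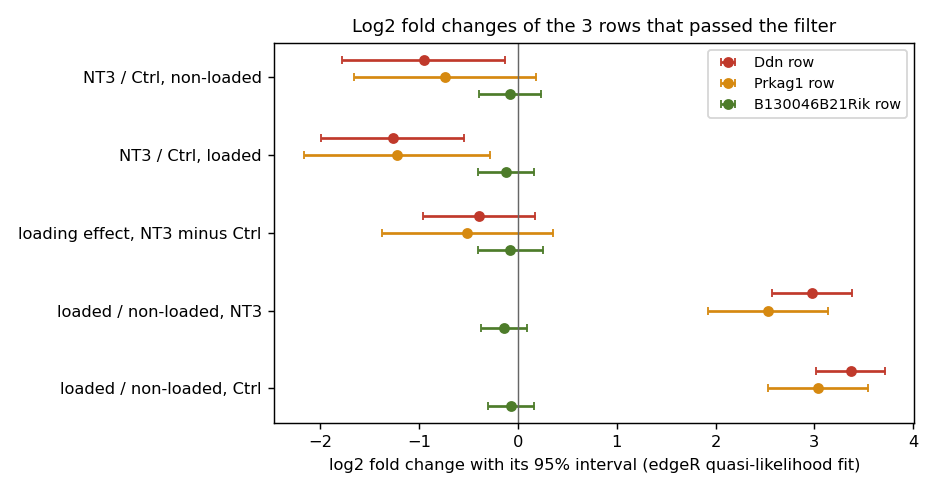
Log2 fold changes of the Ddn, Prkag1 and B130046B21Rik rows in the 5 comparisons, with points as edgeR estimates and bars as 95% intervals. The loading estimates of Ddn and Prkag1 lie between 2.53 and 3.36, their NT3 to Ctrl estimates between -1.26 and -0.73, and the B130046B21Rik estimates between -0.14 and -0.07.

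The Ddn and Prkag1 rows share no exon and lie on the same strand, so their ratio within one library, which needs no scaling, can be set beside their responses. Its change with loading compares the responses by which both rows were chosen, and is given with no test. Fragments of Ddn to fragments of Prkag1 ran from 2.81 to 4.33 in loaded NT3, 2.20 to 4.00 in non-loaded NT3, 3.11 to 4.33 in loaded Ctrl and 1.71 to 3.88 in non-loaded Ctrl. The log2 ratio was higher in the loaded limb in 6 of 8 mice, by 0.44 on average (SD 0.56, n = 8), and the change in single mice ran from -0.31 to 1.19. Between genotypes the log2 ratio averaged 1.63 ± 0.30 in NT3 mice and 1.63 ± 0.18 in Ctrl mice (mean ± SD of both limbs, n = 4; exact two-sided permutation test, p = 0.971, smallest possible p = 0.0286). No difference in the ratio was thus detectable between genotypes.

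The responses of the rows in single mice are likewise a description. Across the 8 mice, the log2 changes in CPM without TMM scaling gave Pearson r = 0.495 and Spearman rho = 0.476, and those in TMM CPM gave r = 0.426 and rho = 0.214. Without the 2 mice farthest from the median Ddn change, Ctrl mouse 1 and NT3 mouse 3, r was 0.240 (n = 6), so the relation rests in part on those mice.

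**Figure D4:**
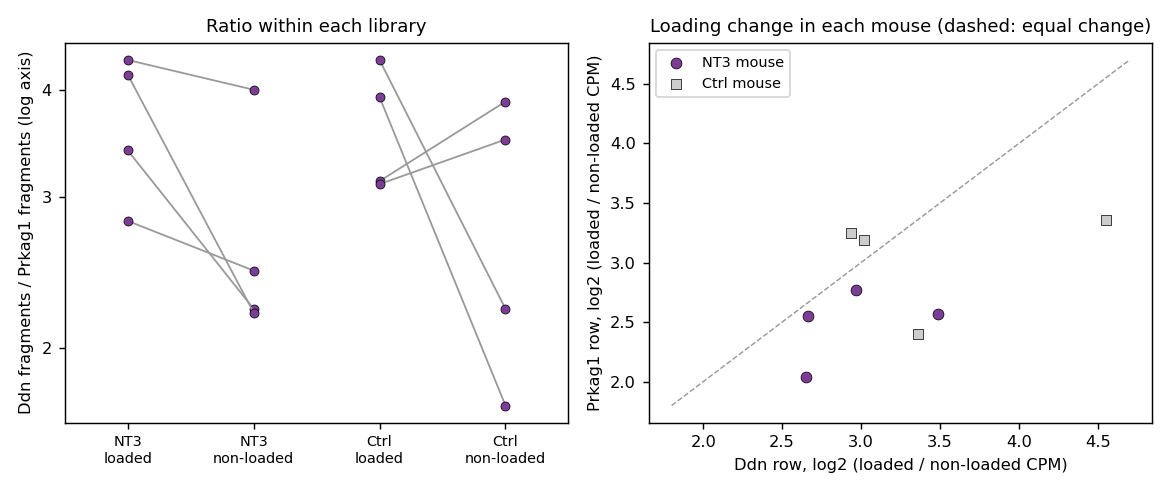
Left, the ratio of Ddn to Prkag1 fragments in each library on a log axis, with lines joining the limbs of one mouse; right, the log2 loading change of the Prkag1 row against that of the Ddn row in the 8 mice, in CPM without TMM scaling. The ratio is higher in the loaded limb in 6 of 8 mice, and the changes on the right have r = 0.495.

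Of 4113 rows averaging at least 20 fragments, Prkag1 was the row most like Ddn over the 16 libraries (Pearson r of log2 CPM 0.979), followed by Aph1b (0.936), which encodes a gamma-secretase subunit, Gm15907 (0.930), Gm10629 (0.908) and Gm43948 (0.901). For Prkag1, Ddn came first, followed by Gm15907 (0.927), Gm4081 (0.925), Nt5c3b (0.907) and 9130024F11Rik (0.900). Nt5c3b faces Fkbp10, which encodes a chaperone of collagen. B130046B21Rik ranked 3016th by likeness to Ddn (r = -0.27) and 2629th by likeness to Prkag1 (r = -0.18). These values share libraries, depth and the split between loaded and non-loaded bone, and are a description.

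With the mean of each group subtracted, so that neither loading nor genotype counts, the Ddn and Prkag1 rows still varied together (r = 0.833). For Ddn, Prkag1 then came behind 4930417O22Rik (0.860), Gm16364 (0.852), Cxadr (0.838), which faces Btg3, and Cobl (0.836). For Prkag1, Ddn came behind Lysmd4 (0.871), which faces Mef2a, Vcan (0.860), which encodes the matrix proteoglycan versican, and Gm4081 (0.855), and ahead of Gm28592 (0.824), which faces Phlda1.

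The other rows of the neighbourhood held few fragments. Within 100 kb of the stretch from Wnt1 to B130046B21Rik the annotation has 16 genes, of which 12 have a row, and 8 of these are other than the 4 described. Kmt2d, a histone methyltransferase gene that lies just beyond Prkag1 on the same strand, held 5 to 18 fragments per library. Its fragments summed to 30 in loaded NT3, 40 in non-loaded NT3, 40 in loaded Ctrl and 57 in non-loaded Ctrl. Its loading log2 fold change was -0.23 in NT3 (edgeR adjusted p = 0.97) and -0.46 in Ctrl (adjusted p = 0.70). Wnt10b, another Wnt ligand gene, lies on the other side of Wnt1 and held 0 to 4 fragments. The remaining rows, Arf3, Lmbr1l, Ccdc65, Dhh, Fkbp11 and Rhebl1, held at most 7 in any library.

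A list of 72 genes of Wnt signalling showed where other parts of the pathway stood. By row name, 13 of the 72 had enough fragments for the loading comparisons, and edgeR called 0 with loading in NT3 (3 at unadjusted p under 0.05, 0 by DESeq2; all rows 0.417%) and 0 in Ctrl (0 at unadjusted p under 0.05, 0 by DESeq2; all rows 4.07%). Their median log2 fold change was 0.09 in NT3 and 0.05 in Ctrl, against -0.0039 in NT3 and -0.03 in Ctrl over all rows. Rows that face exons of a listed gene numbered 14, of which 11 were tested, and edgeR called 0 of them in NT3 (2 at unadjusted p under 0.05, 0 by DESeq2) and 0 in Ctrl (1 at unadjusted p under 0.05, 0 by DESeq2). Their median was 0.18 in NT3 and 0.26 in Ctrl.

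Among the ligands, the Wnt2b row held 39 to 94 fragments and the Wnt4 row 6 to 37, and neither passed the test for loading (Wnt2b -0.20 in NT3 and 0.20 in Ctrl; Wnt4 -0.69 in NT3 and 0.05 in Ctrl; edgeR adjusted p at least 0.63). Among the receptors, the Fzd2 row, named for a Frizzled, was lower in NT3 in both limbs, by 1.87 on the log2 scale in loaded tibiae (edgeR adjusted p = 0.002) and by 2.52 in non-loaded ones (adjusted p = 5.3e-05). It averaged 11.5 ± 6.40 CPM in loaded NT3 and 7.09 ± 0.71 CPM in non-loaded NT3, and 41.8 ± 12.6 CPM in loaded Ctrl and 40.9 ± 9.33 CPM in non-loaded Ctrl. The NT3 level in non-loaded tibiae lay below the filter's level of about 10 fragments, so the row entered that test through its Ctrl libraries. In loaded tibiae the NT3 mean was near that level. Both adjusted p are therefore given as descriptions. The Fzd2 row was the one row named for a Wnt gene called between genotypes, of 10 tested in loaded tibiae (2.65% of all rows called) and 9 in non-loaded tibiae (0.579% of all rows called).

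Among the secreted inhibitors, the Sost row had a log2 fold change with loading of -0.91 in NT3 (edgeR adjusted p = 0.63) and -0.40 in Ctrl (adjusted p = 0.64). The Gm26771 row, which faces the inhibitor gene Sfrp2, fell by 1.42 in loaded NT3 relative to loaded Ctrl (edgeR adjusted p = 0.007). Among intracellular components and targets, the Ulk4 row, which faces the β-catenin gene Ctnnb1, had loading changes of -0.19 in NT3 and 0.23 in Ctrl (edgeR adjusted p = 0.76 in NT3 and 0.34 in Ctrl). The Gm11670 row, which faces the feedback target Axin2, had 1.16 in NT3 and 0.44 in Ctrl (edgeR adjusted p = 0.21 in NT3 and 0.58 in Ctrl).

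The other subunits of AMPK were mostly too low to test. Of 7 subunit genes, only Prkag1 and Prkaa1, which encodes a catalytic subunit, were tested by row name. The Prkaa1 row held 29 to 67 fragments, with a loading log2 fold change of -0.17 in NT3 (edgeR adjusted p = 0.95) and -0.35 in Ctrl (adjusted p = 0.50). The Prkag2os1 and Prkag2os2 rows, which face the gamma subunit gene Prkag2, had loading changes between -0.16 and 0.03. Here edgeR called 0 of these 2 rows (0 at unadjusted p under 0.05, 0 by DESeq2). Over all rows it called 0.417% in NT3 and 4.07% in Ctrl, so nothing is read from 0 calls among so few rows.

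Marker rows were read beside these results because the bone may hold other cells, and because in bulk tissue fewer cells of a type and less RNA per cell cannot be told apart. Neurons and podocytes are where dendrin is best known. The 6 neuronal marker rows were lower in the loaded limb in 1 of 8 mice, with sums of 44.8 to 101 CPM in loaded NT3 and 42.6 to 56.5 CPM in non-loaded NT3, and 69.2 to 79.8 CPM in loaded Ctrl and 44.7 to 60.03 CPM in non-loaded Ctrl. In Ctrl these sums did not overlap between limbs, but how often rows separate in this way was not counted, so nothing is read from it. Nearly all of these fragments were in the Syn1 row (31 to 76 per library; loading log2 fold change 0.16 in NT3, edgeR adjusted p = 0.95, and 0.55 in Ctrl, adjusted p = 0.19), while Snap25 held 0 to 3 and Tubb3 0 to 2. The 5 podocyte marker rows were lower in the loaded limb in 2 of 8 mice, with sums of 43.4 to 81.0 CPM in loaded NT3 and 43.6 to 66.2 CPM in non-loaded NT3, and 39.2 to 58.7 CPM in loaded Ctrl and 35.6 to 54.1 CPM in non-loaded Ctrl. Podxl held most of these fragments (19 to 44 per library), while Wt1 held 0 to 1.

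The summed osteoblast marker rows were higher in loaded bone, though not every row was. The 9 rows named for osteoblast genes summed to 708 to 935 CPM in loaded NT3 and 460 to 640 CPM in non-loaded NT3, and to 736 to 1190 CPM in loaded Ctrl and 264 to 555 CPM in non-loaded Ctrl. The sum was lower in the loaded limb in 0 of 8 mice. Of single rows tested, 2.57% were higher in the loaded limb of each of 8 mice. How often sums of rows separate in this way was not counted, so nothing is read from it. Of the 6 rows tested, edgeR called 1 higher with loading in NT3 (0.334% of all rows), which was Col1a1 (log2 1.19), and 4 in Ctrl (3.07% of all rows), which were Col1a1 (2.06), Col1a2 (1.79), Sparc (1.85) and Ibsp (0.99). Runx2 had -0.11 in NT3 (edgeR adjusted p = 0.97) and -0.27 in Ctrl (adjusted p = 0.55), and Ibsp had -0.12 in NT3 (adjusted p = 0.95). Of the 2 rows that face osteoblast genes, edgeR called 1 higher with loading in each genotype. This was Abi3, which faces Phospho1, at 1.39 in NT3 and 2.44 in Ctrl. Its response was lower in NT3 by 1.06 (edgeR adjusted p = 0.00016). Runx2os1, which faces Runx2, had 0.0023 in NT3 and 0.17 in Ctrl. The 6 osteocyte marker rows summed to 140 to 281 CPM in loaded NT3 and 140 to 263 CPM in non-loaded NT3, and to 229 to 313 CPM in loaded Ctrl and 193 to 272 CPM in non-loaded Ctrl. Of the 3 tested, edgeR called 0 higher with loading in NT3 and 1 in Ctrl, which was Dmp1 (0.72, adjusted p = 0.0045). Dmp1 had 0.59 in NT3 (edgeR adjusted p = 0.17). Mepe had -0.70 in NT3 (adjusted p = 0.11) and -0.03 in Ctrl (adjusted p = 0.96).

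The 11 marrow marker rows were lower in the loaded limb in 6 of 8 mice, with 57.1 to 103 CPM in loaded NT3, 75.1 to 115 CPM in non-loaded NT3, 62.1 to 94.2 CPM in loaded Ctrl and 60.7 to 136 CPM in non-loaded Ctrl. The 7 skeletal muscle marker rows were lower in the loaded limb in 7 of 8 mice, with 86.9 to 147 CPM in loaded NT3, 129 to 305 CPM in non-loaded NT3, 94.2 to 251 CPM in loaded Ctrl and 107 to 280 CPM in non-loaded Ctrl. The Gm11505 row, which faces the marrow gene Mpo, was lower in the loaded limb in 7 of 8 mice. Its loading change was -0.53 in NT3 (edgeR adjusted p = 0.46) and -0.75 in Ctrl (adjusted p = 0.043, not called by DESeq2). In Ctrl, edgeR called 4.07% of all rows. The 3 rows that face skeletal muscle genes summed lower in the loaded limb in 6 of 8 mice. The 3 osteoclast marker rows held 1 to 23 fragments per library and the 3 endothelial ones 6 to 28. The part of these cell types in the levels of the Ddn and Prkag1 rows was not tested.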

How the data were processed

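Per the labels' protocols, total RNA of cortical bone from 16 tibiae was freed of ribosomal RNA, copied with random primers and read from one end for 75 bases. The deposited values are fragment counts per gene row made by the authors, with no normalization. Per the submitters' processing notes, the tools were STAR 2.4.2a, featureCounts 1.4.6 of Subread and DESeq2, with build mm10. No source used here gives the annotation release or the strand setting. The deposited row lengths were used for levels per kb. No row lacked a gene name.

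Of 47517 rows, 45250 were matched by symbol to GENCODE M21, and a row was taken to face a gene where their exons overlap by at least 20 bases on opposite strands. Rows were filtered with filterByExpr (minimum count 10), scaled by TMM and fitted with robust quasi-likelihood F tests in edgeR 4.0.16 under R 4.3.3, with DESeq2 1.42.0 as an alternative, with Benjamini-Hochberg adjustment over all rows tested in a comparison. Each genotype comparison was fitted on the 8 libraries of its limb. Loading and the difference in loading response were fitted on all 16 libraries with mouse as a replicate block. The pairing comes from the design text. Its check, the correlation of the deviations of a mouse's limbs from their group means, gave 0.0443 to 0.172, and for Ctrl mouse 4 another mouse correlated more (0.145 against 0.0443). The exact permutation test used SciPy 1.17.1. Tests also planned for the change in the Ddn to Prkag1 ratio with loading and for the correlation of the responses are not reported, since the rows were chosen by those responses. The fits were tested on simulated data.

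Alternatives were DESeq2, RLE size factors, no filter, no block and leaving out each mouse. The 95% intervals of log2 fold changes come from the fits. Limits on counts of 0 cover counting error only, as the protocols describe no molecular identifiers. The 4 rows and the gene lists were chosen with earlier results of these data known. The other rows named were the rows within 100 kb of the locus, up to 4 of the most abundant rows of each list, and the 5 rows most correlated with Ddn or Prkag1. Snap25, Tubb3 and Wt1, as defining markers, the rows that face marker genes, and the Actb and Map3k14 rows were added with their values known.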

Additional observations from a re-analysis of the deposited data

Results flagged for a closer look

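In 20 sets of 4 libraries checked for a library far from the others, 2 stood out on the scale of CPM without TMM scaling, and chance alone marks about 1 in 20 such sets. The Prkag1 row in loaded NT3 tibiae was high in mouse 2, whose gap to the next library took 0.848 of the group's range. The Wnt1 row in loaded Ctrl tibiae was high in mouse 2, with a gap of 0.892 of the range (12.2 CPM, against at most 2.35 CPM in the other mice). The cause of either was not tested.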

How the results depend on the processing

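Direction of the Ddn and Prkag1 estimates was the same under all alternatives run for the genotype and loading comparisons. In loaded NT3 against loaded Ctrl tibiae, the Ddn log2 fold change was -1.27 without the filter and -1.26 with DESeq2 and passed in both, and it ran from -1.61 to -1.11 with each mouse left out, 2 of 8 of these passing. Prkag1 gave -1.23 without the filter, passing, and -1.77 to -0.98 with each mouse left out, 1 of 8 passing. The gain without the filter came with a smaller SE in both rows and is not read as stronger evidence. Its cause was not tested. B130046B21Rik changed sign without Ctrl mouse 1 in non-loaded tibiae (0.0514; lowest -0.147) and without NT3 mouse 4 in the difference between loading effects (0.0184; lowest -0.156).

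Counts of called rows moved more. Without the filter 71 rows were called in non-loaded genotype tests and 17 for the loading difference. With mice left out the counts ran from 12 to 77 for non-loaded genotype (36 with all mice; 14 when NT3 mouse 3 was left out, 77 for Ctrl mouse 1, 12 for Ctrl mouse 2 and 20 for Ctrl mouse 3). They ran from 17 to 44 for loading in NT3 (30; 17 without NT3 mouse 1) and from 163 to 325 for loading in Ctrl (293; 163 without Ctrl mouse 2 and 188 without Ctrl mouse 3). DESeq2 called 19 rows for loading in NT3 and 169 in Ctrl. With no replicate block, edgeR called 0 rows for the loading difference (335 at unadjusted p under 0.05), 5 for loading in NT3 and 171 in Ctrl, while the loading estimates of Ddn were 2.98 in NT3 and 3.30 in Ctrl.

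The change in the Ddn to Prkag1 ratio with loading was 0.44 with no replicate block and 0.33 to 0.55 with each mouse left out, and is given with no test. The genotype difference in this ratio was near 0 and ran from -0.148 to 0.0725, changing sign in 5 of 8 cases. Low counts limit the Wnt1 row most, since 5 of its 16 libraries are at 0.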
